A study of Caenorhabditis elegans with 20 samples.

Results

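Vitamin B12-treated *Δdhgd-1* mutants were compared with untreated wild-type animals to ask which genes the supplement returns to the untreated wild-type level, takes past it or leaves changed. The comparison uses the 5 libraries of *dhgd-1*(tm6671) mutants on plates with 64 nM vitamin B12 and the 5 libraries of wild type without supplement, 10 of the 20 libraries in the series. The 5 libraries of unsupplemented mutants give the starting point of each gene, and the 5 libraries of supplemented wild type give the effect of the vitamin in animals with *dhgd-1*. Both strains were maintained on plates with 64 nM adenosylcobalamin, and only the experimental plates differed in the supplement. The mutants carry 1 deletion allele, backcrossed 3 times to the N2 wild type. RNA was taken from bodies of gravid, synchronized adults freed of embryos and pooled within a library, and was read with Cel-seq2 next to the poly(A) tail. In such pooled RNA, fewer cells of a type and less RNA per cell cannot be told apart.

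The enzyme encoded by *dhgd-1* oxidizes D-2-hydroxyglutarate, a metabolite that HPHD-1 produces while it works in the propionate shunt. That shunt breaks down propionate when vitamin B12 is scarce, and its genes are turned down when the vitamin lets the canonical pathway run. Vitamin B12 is also the cofactor of methionine synthase, which feeds the cycle that makes S-adenosylmethionine and, from it, phosphatidylcholine.

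Total counts ranged from 3835215 to 15457950 per library in supplemented mutants and from 3643918 to 12641097 in wild type, over library names of 2 series (olga and s), with replicates 1 and 2 in the first and 5, 6 and 7 in the second. All levels are CPM, counts scaled to library size with TMM normalization, in the order of replicates 1, 2, 5, 6 and 7, and means are given with the SD (n = 5). Log2 fold changes come from edgeR's quasi-likelihood fit of all 20 libraries with group and library series as terms. Defining markers of intestine, body wall muscle, hypodermis, neurons and oocytes were present in every group, and none of the marker lists held a gene called between the 2 groups. Vitellogenin CPM summed to 4257 to 11713 in supplemented mutants and 3117 to 11307 in wild type. Summed pharynx markers were 48.3 to 182 CPM in supplemented mutants and 93.1 to 205 in wild type, and sperm markers were 18.4 to 35.3 and 8.20 to 33.4 CPM in the same order. Early embryo markers, with 3 of 14 genes passing the low-count filter, summed to 148 to 457 CPM in supplemented mutants and 168 to 492 in wild type. Replicate 7 of untreated wild type was the lowest of its group in oocyte (9561 CPM), intestine (1858), muscle (4747) and neuron markers (401). It was the highest in early embryo markers (492 CPM). Outside the comparison, replicate 7 of supplemented wild type had a vitellogenin sum of 1426 CPM, against 8001 to 13420 in the other 4 libraries of its group. That library was also the lowest of its group in oocyte, intestine, muscle and neuron markers (6328, 1054, 2757 and 248 CPM). In early embryo markers it was the highest (609 CPM). Replicate 1 of unsupplemented mutants had 101 CPM of sperm markers and 488 CPM of pharynx markers, the highest of all 20 libraries.

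*dhgd-1* had 9.99, 17.7, 22.1, 14.4 and 5.83 CPM in supplemented mutants, against 28.2, 29.2, 23.4, 17.7 and 16.6 CPM in wild type. Its log2 fold change was -0.67 (SE 0.28, adjusted p = 0.449 in edgeR), and the groups overlapped. The deletion lies at the 5′ end of the gene while the reads come from the 3′ end, so these counts do not check the genotype. The transcription factor subunit gene *gtf-2E2* (chromosome II, 11540773 to 11542495, WBcel235), which the annotation places inside the span of *dhgd-1* on the same strand, had 12.64, 11.05, 13.2, 11.2 and 14.4 CPM in supplemented mutants and 21.9, 19.2, 24.4, 23.7 and 35.3 CPM in wild type. The groups did not overlap, the log2 fold change was -0.98 (SE 0.19, adjusted p = 0.00395 in edgeR), and the value in unsupplemented mutants was -1.07 (edgeR adjusted p = 0.00189). This gene was picked after its values had been seen.

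Of 11270 genes tested, 206 (1.83%) differed between supplemented mutants and untreated wild type by over 1.5-fold with an edgeR adjusted p under 0.05. Of these, 87 were lower (0.772%) and the others higher (1.06%), and 190 moved the same way in 5 of 5 pairs of libraries with equal numbers. In 125 of the 206 the groups did not overlap, as they did not in 196 of all genes tested (1.74%). With the replicate number as a block, 206 genes were higher and 129 lower. Within the s series alone 49 genes were higher and 39 lower, and within the olga series, with 2 libraries a group, 10 and 7. Over all genes the median log2 fold change was -0.03.

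Without supplement the strains differed in 317 genes (2.81%, with 1.82% higher and 0.994% lower in mutants), and each of these was placed by its level in supplemented mutants. Left changed were 79 genes, which were called again in the same direction (56 higher and 23 lower than wild type). Brought back were 29 genes, for which the supplement was called in mutants (1.86% of genes tested) in the opposite direction, no call remained against wild type, and the 95% interval of the remaining difference lay within 1 log2 unit either way. Of these, 12 had been higher and 17 lower in unsupplemented mutants. Overshot were 2 genes, *fat-7* and *D1086.3*, and 207 met none of these conditions. With the replicate number as a block the 3 groups held 141, 79 and 6 genes. The comparisons share wild-type libraries, so that the placement of a gene along both axes moves with the same 5 libraries. Both calls asked of a gene brought back also use the same 5 libraries of unsupplemented mutants. A deviation of those libraries alone could make both calls, so they are not separate support. The number brought back depends on the libraries: it was 12 without replicate 6 or 7 of supplemented mutants and 42 without replicate 7 of supplemented wild type.

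**Figure D1:**
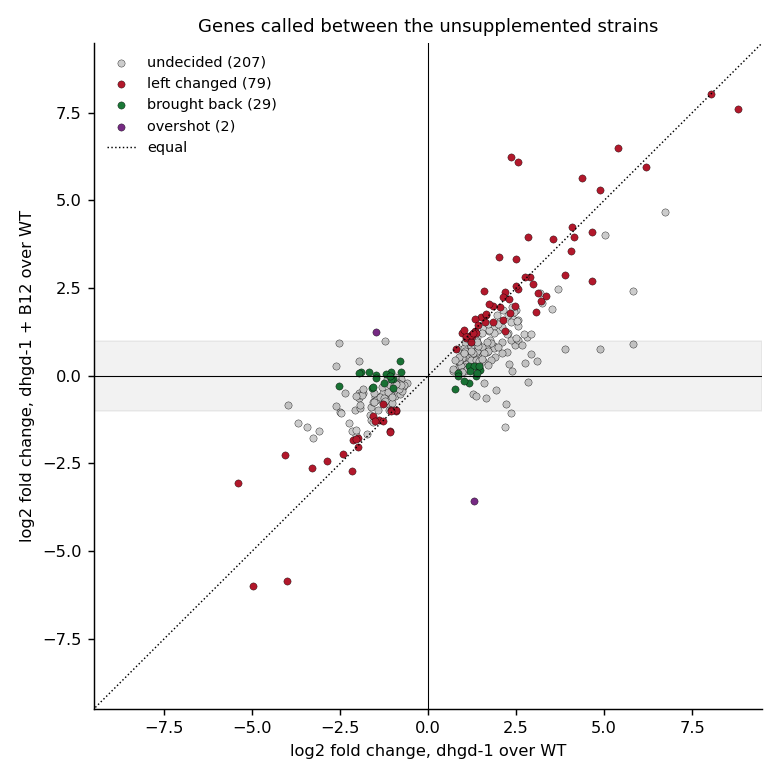
Log2 fold changes of the 317 genes called between the unsupplemented strains, with *Δdhgd-1* over wild type on the x axis and supplemented *Δdhgd-1* over wild type on the y axis. Each point is a gene, grey for the 207 not placed, the grey band marks 1 log2 unit either way and the dotted line equal values. By the placing rules, the 29 genes brought back lie near 0 and the 2 overshot on the other side of 0. The 79 left changed lie on the side that the rules require, at varied distances from the dotted line. *pud-3* and *pud-4*, for example, lie well above it.

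By their medians, genes left changed stood about as far from wild type in supplemented as in unsupplemented mutants. The placing rules themselves keep these genes on their side of wild type and hold genes brought back near 0. The medians of the classes are therefore a description only. Over the 56 genes left higher, the median log2 fold change against wild type was 2.22 in supplemented mutants and 2.32 in unsupplemented mutants, and that of supplemented wild type was 0.93. For the 23 genes left lower the medians were -1.76, -1.998 and -0.09 in the same order. Supplemented mutants set against supplemented wild type gave medians of 0.81 and -1.37 for these 2 groups. For the 29 genes brought back, the medians against wild type were 0.08 in supplemented mutants and 1.17 in unsupplemented mutants for the 12 that had been higher, and -0.01 and -1.25 for the 17 that had been lower. Across all genes tested each of these medians lay between -0.03 and 0.01. Of the 79 genes left changed, the effect of the supplement in mutants was called in 5: *pud-3* and *pud-4* moved further from wild type and 3 genes, among them *Y48E1B.8*, part of the way toward it.

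Of the 5 propionate shunt genes, 2 were called, both lower in supplemented mutants than in untreated wild type, and the median log2 fold change of the 5 was -1.11. Over all genes tested, 0.772% were lower. *acdh-1*, the acyl-CoA dehydrogenase of the first shunt step, had 33.5, 103.6, 110.1, 46.3 and 14.4 CPM in supplemented mutants, against 378, 196, 291, 292 and 307 CPM in wild type. All 5 supplemented mutant libraries lay below every wild-type library, and the log2 fold change was -2.26 (SE 0.45, adjusted p = 0.00486 in edgeR). Unsupplemented mutants had 391, 264, 205, 217 and 243 CPM and supplemented wild type 12.32, 6.37, 30.6, 7.55 and 5.44 CPM, which puts the mean of supplemented mutants between those of the supplemented and the untreated wild type. The hydratase gene *ech-6* had 154, 287, 264, 215 and 168 CPM in supplemented mutants and 668, 466, 539, 509 and 526 CPM in wild type. Its groups did not overlap either, with a log2 fold change of -1.32 (SE 0.19, adjusted p = 0.000116 in edgeR).

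The next steps showed smaller differences. *hphd-1*, whose product makes D-2-hydroxyglutarate, had 74.4, 81.8, 60.3, 42.7 and 19.4 CPM in supplemented mutants and 153, 135, 93.3, 125 and 74.8 CPM in wild type, a log2 fold change of -1.11 (SE 0.30, adjusted p = 0.0511 in edgeR). The difference was negative in 5 of 5 pairs and missed the threshold, but it was called with the replicate number as a block, at -1.17 (edgeR adjusted p = 0.0066), and in DESeq2 (adjusted p = 0.0105). For the hydrolase gene *hach-1* the values were 282, 349.6, 282, 197 and 95.02 CPM in supplemented mutants and 397, 601, 287, 329 and 318 CPM in wild type, overlapping, with a log2 fold change of -0.69 (SE 0.25, adjusted p = 0.265 in edgeR). *alh-8*, the dehydrogenase at the end of the shunt, had a log2 fold change of -0.38 (edgeR adjusted p = 0.795) and a 95% interval of -0.85 to 0.09. *acdh-2*, the close relative of *acdh-1*, had 19.1, 65.6, 75.2, 71.3 and 23.2 CPM in supplemented mutants and 24.5, 40.9, 131, 132 and 95.8 CPM in wild type, a log2 fold change of -0.60 (edgeR adjusted p = 0.868), and 200.1, 153, 168, 205 and 201 CPM in unsupplemented mutants. Both groups of the comparison covered wide and overlapping ranges there. Without supplement none of the 5 shunt genes was called between the strains, so none could be brought back or left changed.

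**Figure D2:**
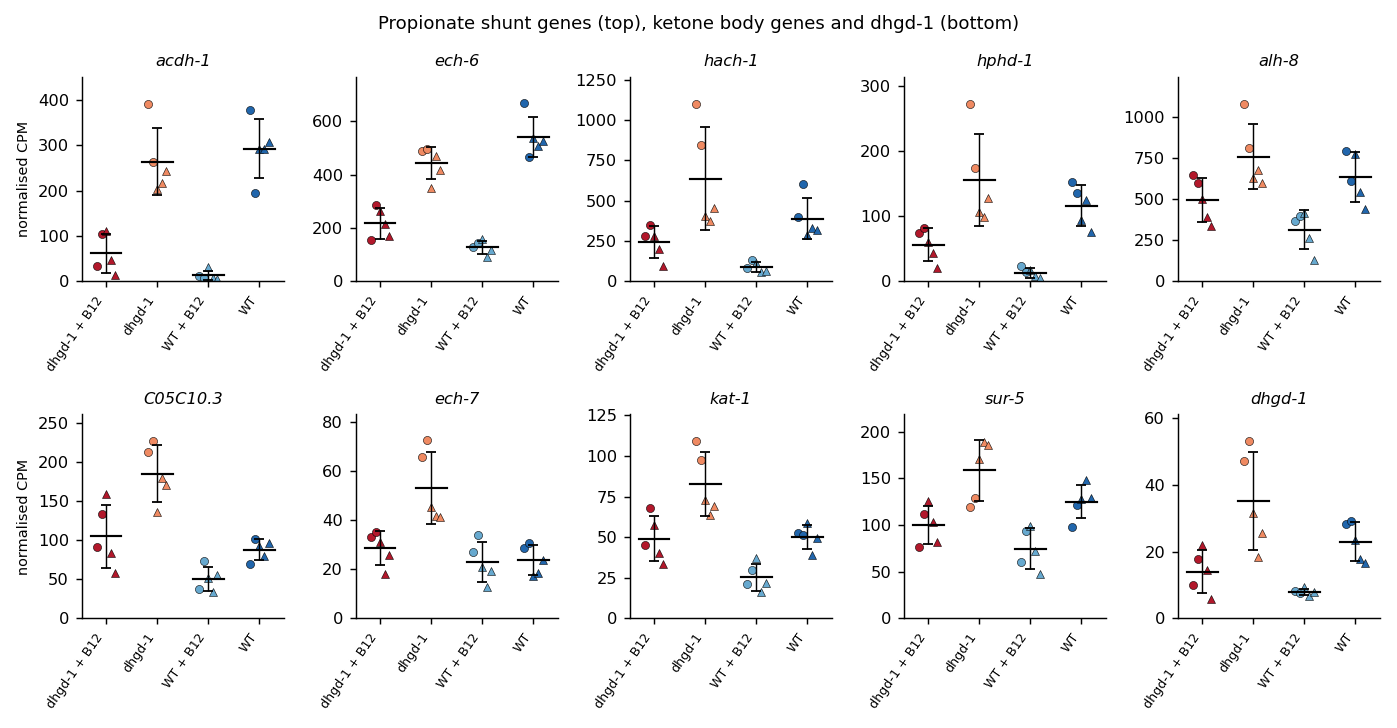
Normalised CPM (y axis) of the 5 shunt genes, the 4 ketone body genes and *dhgd-1* in each library of the 4 groups (x axis), with circles for the olga series, triangles for the s series and the mean with its SD as bars. *acdh-1* and *ech-6* of supplemented mutants lie below all wild-type libraries, while the ketone body genes overlap with wild type.

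The 4 ketone body genes outside the shunt were not called between supplemented mutants and untreated wild type, and their median log2 fold change was 0.10. Their category came from a published pathway annotation, and the study turned to it after an enrichment analysis of these same samples. *ech-7*, encoding an enoyl-CoA hydratase, was brought back. It had 33.2, 35.1, 31.3, 18.1 and 25.9 CPM in supplemented mutants, 65.8, 72.7, 45.4, 41.6 and 41.4 CPM in unsupplemented mutants and 28.9, 30.8, 17.3, 18.4 and 23.9 CPM in wild type. The remaining log2 fold change was 0.28 with a 95% interval of -0.10 to 0.66, against 1.15 (edgeR adjusted p = 0.000577) without supplement, and that of the supplement in mutants was -0.87 (edgeR adjusted p = 0.00844). The CoA transferase gene *C05C10.3* was also called without supplement, at 1.05 (edgeR adjusted p = 0.0137). It had 91.6, 133, 159.6, 83.7 and 58.2 CPM in supplemented mutants and 69.3, 102, 93.1, 80.1 and 96.7 CPM in wild type, a log2 fold change of 0.24 and an interval of -0.25 to 0.74. The supplement was not called in mutants, at -0.81 (edgeR adjusted p = 0.0987), so the gene was not placed; with the replicate number as a block both *C05C10.3* and *kat-1* were brought back. The thiolase gene *kat-1* differed from wild type by -0.05 with an interval of -0.51 to 0.40, and *sur-5*, an acetoacetyl-CoA synthetase gene, by -0.32 with an interval of -0.73 to 0.10.

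Genes left changed included 3 UDP-glucuronosyltransferase genes, 3 saposin-like and antimicrobial peptide genes and 1 cuticle collagen gene. In the last 2 lists, 4 and 8 genes called without supplement were not placed. *ugt-32*, a UDP-glucuronosyltransferase gene (chromosome V, 3841794 to 3844007), had 19.98, 22.3, 25.1, 23.4 and 46.6 CPM in supplemented mutants and 1.30, 1.39, 0.205, 0 and 0.855 CPM in wild type. Each supplemented mutant library exceeded each wild-type library, with a log2 fold change of 5.29 (SE 0.43, adjusted p = 2.28e-08 in edgeR), and unsupplemented mutants stood at 14.2 to 27.2 CPM. Another member, *ugt-63*, was lower, with 3.25, 1.47, 1.42, 4.61 and 8.90 CPM in supplemented mutants and 36.7, 6.67, 30.9, 9.63 and 14.1 CPM in wild type. Its groups overlapped, and the log2 fold change was -2.26 (SE 0.45, adjusted p = 0.00486 in edgeR), against -4.07 (edgeR adjusted p = 2.84e-05) without supplement. Of 49 UDP-glucuronosyltransferase genes tested, 2 were higher and 1 lower in supplemented mutants, against 5 and 7 in unsupplemented mutants, both set against the same wild-type libraries. Of those 12, 3 were left changed, 1 was brought back and 8 were not placed. Shares over all genes tested were 1.06% higher and 0.772% lower in supplemented mutants, and 1.82% and 0.994% in unsupplemented mutants.

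Defence genes were also among those left changed. The lysozyme gene *lys-2* had 405, 415, 543, 383 and 607 CPM in supplemented mutants and 159, 133, 126, 144 and 197 CPM in wild type, without overlap. Its log2 fold change was 1.62 (SE 0.19, adjusted p = 4.02e-06 in edgeR), beside 1.34 in unsupplemented mutants and 1.66 in supplemented wild type, so that all 3 other groups stood above untreated wild type. The epidermal antimicrobial peptide gene *nlp-29* had 125, 59.2, 40.1, 33.8 and 32.7 CPM in supplemented mutants and 24.96, 31.4, 21.3, 14.3 and 22.6 CPM in wild type, a log2 fold change of 1.21 (SE 0.23, adjusted p = 0.00281 in edgeR). Its neighbour *nlp-31*, named after its values were seen, had a log2 fold change of 1.08 (edgeR adjusted p = 0.027) and was not called without replicate 1 (adjusted p = 0.0711) or 5 (0.0718) of supplemented mutants or replicate 1 of wild type (0.0677). Of 52 saposin-like and antimicrobial peptide genes tested, 5 were higher and 1 lower, and of 65 C-type lectin genes 3 were higher and 1 lower. Their medians were 0.24 and -0.01. Over all genes tested, 1.06% were higher and 0.772% lower. *clec-67*, a lectin gene, had 3.01, 2.46, 4.19, 2.84 and 3.36 CPM in supplemented mutants and 0.163, 0, 0.615, 0 and 0.0777 CPM in wild type, a log2 fold change of 3.95 (SE 0.72, adjusted p = 0.00207 in edgeR). Unsupplemented mutants had 0.381, 0.412, 4.42, 0.648 and 1.49 CPM, overlapping with wild type, at 2.85 (edgeR adjusted p = 0.0368). Supplemented wild type reached 0.614 to 3.94 CPM, at 3.50 against untreated wild type (edgeR adjusted p = 0.0109).

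Further genes left higher included a tubulin gene and a chemoreceptor-family gene. *tbb-6*, a beta-tubulin gene named after its values were seen, had 5.30, 5.40, 5.95, 5.68 and 5.46 CPM in supplemented mutants, 5.59, 8.03, 6.49, 6.02 and 9.37 CPM in unsupplemented mutants and 1.47, 0.834, 0.923, 0.713 and 0.622 CPM in wild type. The log2 fold change against wild type was 2.62 (SE 0.31, adjusted p = 4.38e-06 in edgeR), and the narrow ranges of the mutant groups lay clear of wild type. *W02H5.2*, which overlaps *W02H5.19* and noncoding genes on its own strand, had 13.1, 14.7, 11.9, 25.98 and 15.3 CPM in supplemented mutants and 2.77, 3.33, 0.513, 0.178 and 0.155 CPM in wild type. Its wild-type libraries of the olga series were higher than those of the s series, and the log2 fold change was 2.25 within the olga series and 5.90 within the s series, or 3.95 (SE 0.58, adjusted p = 0.000124 in edgeR) over both. The chemoreceptor-family gene *srd-54*, with *kcc-3* on the other strand of its position, had 4.21, 5.89, 5.62, 6.60 and 7.03 CPM in supplemented mutants, with at most 1 count in a wild-type library, and a log2 fold change of 6.50 with a 95% interval of 5.37 to 7.62. That value depends on the prior count. With each wild-type library set to a floor of 3 counts, *srd-54* was at least 12.2-fold higher. *C06E4.3* was higher as well, at 4.10 (SE 0.51, adjusted p = 1.41e-05 in edgeR), with 2.32 to 7.58 CPM in supplemented mutants and 0 to 0.535 CPM in wild type.

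Among genes left lower, the cuticle collagen gene *col-93* had 59.2, 164, 131, 326 and 227 CPM in supplemented mutants and 2329.7, 775, 941, 796 and 438 CPM in wild type. The groups did not overlap, and the log2 fold change was -2.44 (SE 0.46, adjusted p = 0.0025 in edgeR) beside -2.88 in unsupplemented mutants. In the family, 56 collagen genes were tested. Of these, 1 was higher and 1 lower in supplemented mutants, against 1 and 8 in unsupplemented mutants. Shares over all genes tested were 1.06% and 0.772%, against 1.82% and 0.994%. Of the collagen genes called without supplement, 1 was left changed and 8 were not placed. The higher gene was *col-133*, with 8.79, 6.38, 9.64, 20.9 and 16.97 CPM in supplemented mutants and 0.489, 0, 4.51, 0.535 and 0.544 CPM in wild type, at 3.24 (SE 0.60, adjusted p = 0.00242 in edgeR). *scl-6*, of the family of secreted SCP-like proteins, had 0, 0, 0, 0.213 and 0.1495 CPM in supplemented mutants and 15.2, 1.39, 3.79, 6.06 and 7.23 CPM in wild type, a log2 fold change of -6.005 (SE 0.71, adjusted p = 5.14e-06 in edgeR). With each supplemented mutant library set to a floor of 3 counts, it was at least 18.8-fold lower. *Y48E1B.8*, overlapped by *clec-145* on the opposite strand, had 1.08, 3.68, 0.335, 1.35 and 1.05 CPM in supplemented mutants, 0.762, 0.412, 0.0691, 0.0925 and 0.213 CPM in unsupplemented mutants and 30.5, 17.8, 6.77, 5.71 and 7.15 CPM in wild type. It moved part of the way, from the mutant side, with a log2 fold change of 2.33 (edgeR adjusted p = 0.00441) for the supplement and -3.07 (SE 0.33, adjusted p = 1.9e-06 in edgeR) left against wild type. *K09C6.9* stood at 0 to 1.56 CPM in supplemented mutants and 1.95 to 9.72 CPM in wild type, at -2.62 (SE 0.44, adjusted p = 0.000726 in edgeR).

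Genes brought back included enzymes of lipid and amino acid metabolism. The fatty acid desaturase gene *fat-2*, whose enzyme makes linoleic acid, had 439.5, 302, 154, 94.0 and 111 CPM in supplemented mutants, 1125, 739.8, 202, 220.0 and 204 CPM in unsupplemented mutants and 301, 248, 112, 87.2 and 115 CPM in wild type. Both library series showed the same order of the groups at different levels, and the remaining log2 fold change was 0.28 with an interval of -0.18 to 0.74, against 1.31 (edgeR adjusted p = 0.00121) without supplement. *alh-9*, an aldehyde dehydrogenase gene of lysine breakdown, had 458, 401, 325, 332 and 361 CPM in supplemented mutants, 231, 284, 174, 256 and 241 CPM in unsupplemented mutants and 618, 608, 439.7, 366 and 400.0 CPM in wild type. Its supplemented mutant libraries were above all unsupplemented ones and overlapped with wild type, with a remaining log2 fold change of -0.35 (95% interval -0.70 to -0.00). *cth-2*, which encodes a cystathionine gamma-lyase that makes cysteine, had 282, 244, 208, 332 and 333 CPM in supplemented mutants, 179.5, 148, 122, 158 and 120.2 CPM in unsupplemented mutants and 513, 238, 219, 288 and 253 CPM in wild type. The remaining log2 fold change was -0.09 (-0.51 to 0.34), after -1.05 (edgeR adjusted p = 0.00467) without supplement.

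Of 6 tested genes of the groundhog family, which encodes secreted hedgehog-related proteins, all 6 were lower in unsupplemented mutants. Of these, 4 were brought back and 2 were not placed. Among all genes tested, 112 (0.994%) were lower in unsupplemented mutants. Only those 112 could be brought back from below, and 17 of them were (0.151% of genes tested). The family was picked after its values were seen. *grd-14* had 3.49, 3.68, 5.03, 16.7 and 19.7 CPM in supplemented mutants, 1.02, 1.85, 2.76, 1.57 and 2.41 CPM in unsupplemented mutants and 11.3, 6.39, 14.7, 11.2 and 10.7 CPM in wild type. Its supplemented mutant libraries fell into low values in replicates 1, 2 and 5 and high values in replicates 6 and 7, so the group mean met the wild-type level although 3 of the 5 libraries were below every wild-type library. *grd-10* had 3.69 to 9.20 CPM in supplemented mutants, 0.923 to 2.06 CPM in unsupplemented mutants and 1.78 to 6.996 CPM in wild type, with a remaining log2 fold change of 0.10 (-0.61 to 0.81). Picked after their values were seen, *grd-3* and *grd-5* had remaining log2 fold changes of -0.20 and -0.35, after -1.25 (edgeR adjusted p = 0.011) and -1.61 (edgeR adjusted p = 1.39e-05) without supplement. The kynurenine monooxygenase gene *kmo-1*, also picked afterwards, differed from wild type by 0.11 (-0.39 to 0.60), after -1.05 (edgeR adjusted p = 0.0167). *F43H9.4* and *C52D10.3* had remaining log2 fold changes of 0.07 and 0.09, and that of *C52D10.3* was -1.18 within the olga series and 0.95 within the s series.

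From above, the cathepsin B-like protease gene *cpr-1* was brought back with 1035, 191, 172, 155 and 128 CPM in supplemented mutants, 2015, 769, 458, 410.3 and 324 CPM in unsupplemented mutants and 391, 320.2, 142, 178 and 215 CPM in wild type. Replicate 1 of supplemented mutants stood far above the other 4 libraries of its group. The log2 fold change against wild type was 0.86 within the olga series and -0.23 within the s series, and 0.17 over both. The potassium channel gene *twk-13*, the immunoglobulin-domain gene *zig-3* and *F17A9.4* had remaining log2 fold changes of 0.27, -0.01 and 0.07, after 1.44, 1.35 and 1.39 without supplement. Their supplemented mutant values overlapped with wild type. *bca-1*, a carbonic anhydrase gene picked after its values were seen, had 53.5 to 77.0 CPM in supplemented mutants, 109 to 197 CPM in unsupplemented mutants and 72.0 to 95.4 CPM in wild type, where the unsupplemented mutants lay above all libraries of both other groups.

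**Figure D3:**
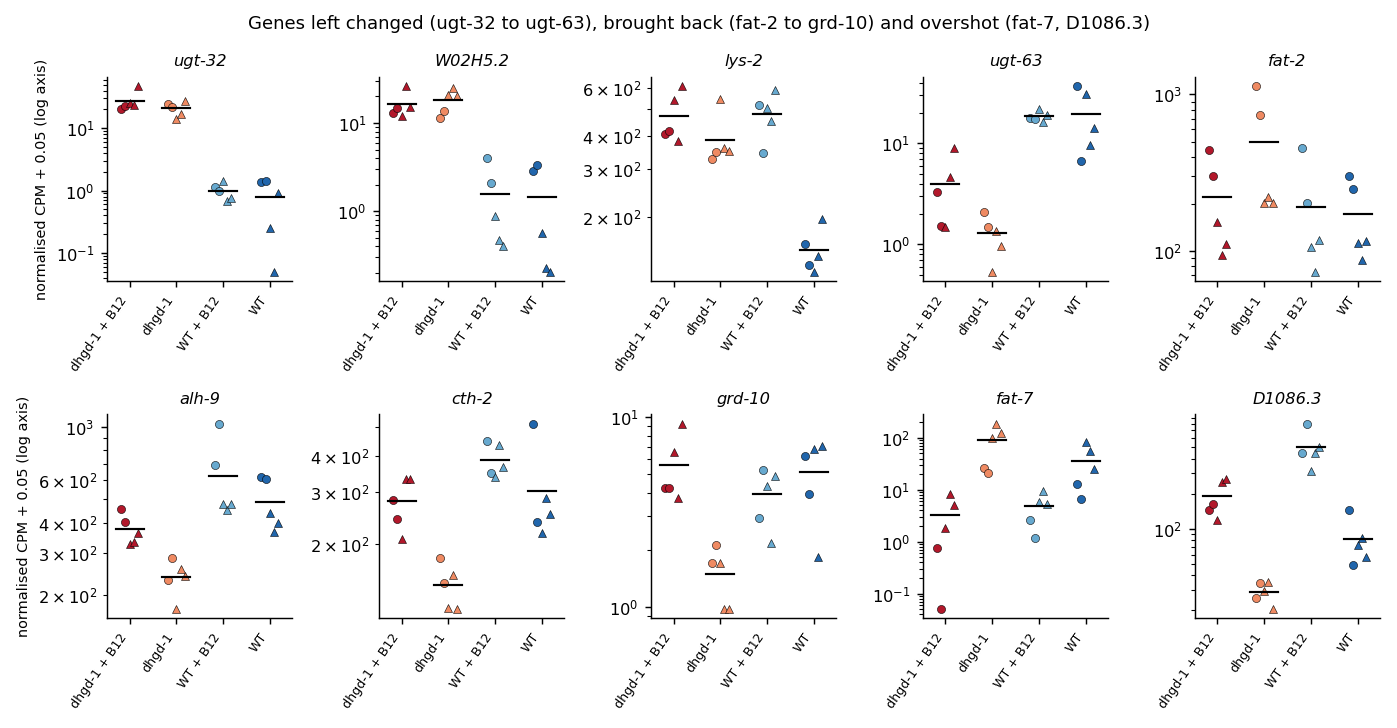
Normalised CPM plus 0.05 on a log axis (y) in each library of the 4 groups (x) for 4 genes left changed, 4 brought back and the 2 overshot, with circles for the olga series, triangles for the s series and lines at the means. Supplemented mutants stay with unsupplemented mutants for *ugt-32*, sit near wild type for *fat-2*, and lie beyond it for *fat-7* and *D1086.3*.

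In 2 genes the supplement carried mutants past the level of untreated wild type. *fat-7*, a stearoyl-CoA desaturase gene, had 0.722, 0, 1.76, 8.23 and 5.01 CPM in supplemented mutants, 25.8, 21.4, 98.5, 187 and 123 CPM in unsupplemented mutants and 12.7, 6.67, 81.4, 56.9 and 25.1 CPM in wild type. The log2 fold change against wild type was -3.58 (SE 0.41, adjusted p = 4.02e-06 in edgeR), on the other side of 1.30 (edgeR adjusted p = 0.0434) without supplement, and supplemented wild type stood at -2.92. Levels differed between the library series in every group, and only replicate 6 of supplemented mutants exceeded the lowest wild-type library. *D1086.3* went the other way, with 146, 164, 119.4, 253 and 267 CPM in supplemented mutants, 25.5, 34.6, 29.6, 34.9 and 20.4 CPM in unsupplemented mutants and 146, 49.2, 72.8, 83.3 and 56.9 CPM in wild type. Replicate 1 of supplemented mutants equalled replicate 1 of wild type to 3 digits, replicates 2, 6 and 7 exceeded all wild-type libraries and replicate 5 did not, and the log2 fold change was 1.25 (SE 0.29, adjusted p = 0.0185 in edgeR). That call was lost without replicate 7 of supplemented mutants (adjusted p = 0.0623) and without replicate 2 (0.051) or 7 (0.0617) of wild type. Supplemented wild type had 315 to 797 CPM of *D1086.3*, at 2.62 against untreated wild type (edgeR adjusted p = 4e-06). Supplemented mutants were called below supplemented wild type, at -1.38 (edgeR adjusted p = 0.0171), beside -1.48 between the unsupplemented strains. Within the s series alone *fat-7* and *D1086.3* were called against wild type at -3.43 (edgeR adjusted p = 0.00199) and 1.59 (edgeR adjusted p = 0.0284), but no gene met all conditions for overshot within either library series. With the replicate number as a block the lysozyme gene *lys-4* and the protease gene *cpr-4* were also past the wild-type level, with log2 fold changes of -2.43 (edgeR adjusted p = 7.24e-07) and -1.35 (edgeR adjusted p = 0.000946).

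Of the 206 genes called, 125 were not called between the unsupplemented strains, 62 higher and 63 lower in supplemented mutants than in untreated wild type (188 with the replicate number as a block). For 55 of them (27 higher, 28 lower) vitamin B12 had a called effect in both strains (1.86% of genes tested in mutants and 1.45% in wild type), for 15 in mutants alone, for 19 in wild type alone and for 36 in neither. Over the 27 higher genes called in both strains, the median log2 fold change against untreated wild type was 2.37 in supplemented mutants and 2.64 in supplemented wild type, and over the 28 lower genes -2.41 and -2.73. The medians of supplemented mutants against supplemented wild type were -0.03 and 0.08 for these genes. A call in a single strain does not show that the strains differ in their response.

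**Figure D4:**
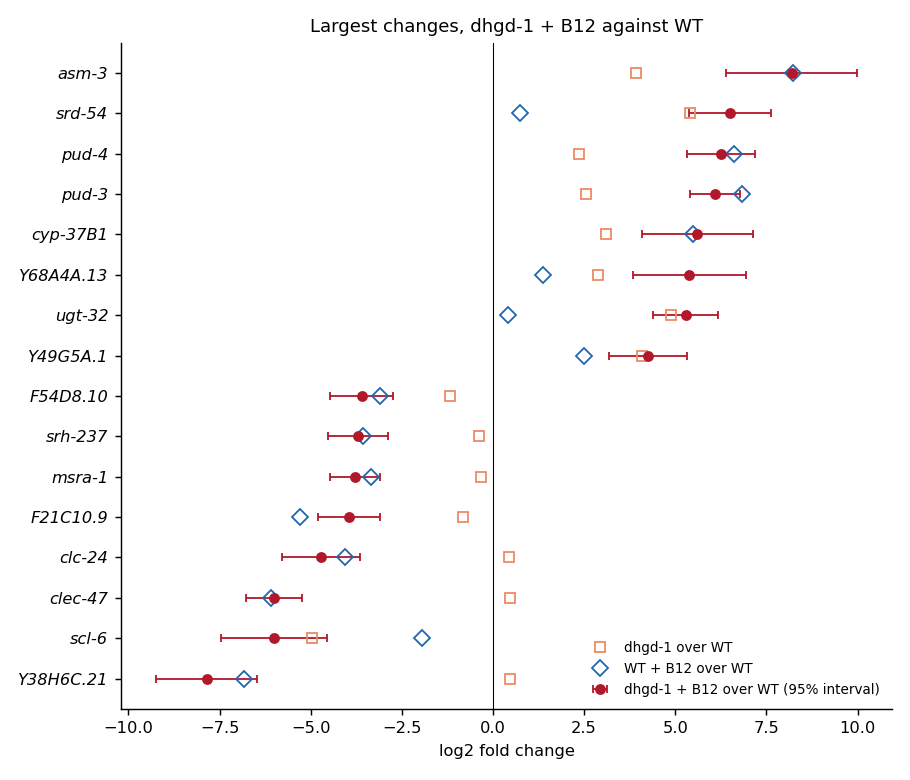
Log2 fold changes (x axis) of 16 called genes, the 8 most raised and 8 most lowered that averaged 20 or more counts per library and kept one sign in 5 of 5 pairs, between supplemented *Δdhgd-1* mutants and untreated wild type (y axis), with 95% intervals, beside unsupplemented mutants (squares) and supplemented wild type (diamonds) over the same wild-type libraries. For 7 of the 8 lower genes, all but *scl-6*, the diamonds lie closer to the supplemented mutants than the squares do, and the *asm-3* values are fitted against wild-type libraries with 0 counts and depend on the prior count.

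Genes of this kind were also among the largest changes that averaged 20 or more counts per library and had 1 direction in all pairs. *clec-47*, a C-type lectin gene, had 0.361, 1.47, 1.01, 0.7097 and 0.748 CPM in supplemented mutants and 68.8, 23.6, 40.8, 58.0 and 72.1 CPM in wild type. Every wild-type library was far above every supplemented mutant library, with a log2 fold change of -6.003 (SE 0.37, adjusted p = 1.19e-10 in edgeR). *Y38H6C.21* had 0.120, 0, 0, 0 and 0 CPM in supplemented mutants, with 1 count in a single library, and 13.4, 6.11, 5.43, 3.92 and 10.4 CPM in wild type, a log2 fold change of -7.85 with an interval of -9.25 to -6.46. The claudin-like gene *clc-24*, *F21C10.9*, the chemoreceptor-family gene *srh-237* and *F54D8.10* had log2 fold changes of -4.71, -3.95, -3.70 and -3.61, each in 5 of 5 pairs and without overlap. *msra-1*, a methionine sulfoxide reductase gene, had 16.37, 24.1, 25.2, 28.3 and 40.7 CPM in supplemented mutants and 572, 131, 213, 479 and 452 CPM in wild type, at -3.79 (SE 0.34, adjusted p = 5.81e-08 in edgeR).

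On the higher side, the pud genes, named for proteins upregulated in daf-2 mutants, stood far above untreated wild type. *pud-3* had 339, 204, 384, 523 and 562 CPM in supplemented mutants, 39.0, 39.96, 30.3, 33.4 and 25.6 CPM in unsupplemented mutants and 4.24, 4.45, 8.10, 4.99 and 6.92 CPM in wild type, with no overlap between any pair of these groups. Its log2 fold change was 6.09 (SE 0.33, adjusted p = 1.05e-11 in edgeR), and that of its neighbouring paralog *pud-4*, with which it may share reads, was 6.25 (SE 0.45, adjusted p = 2.36e-09 in edgeR). Of 4 pud genes tested all 4 were higher, with *pud-1.1* at 3.78 and *pud-2.2* at 3.77 with low values in wild type and in the olga series. Higher genes made up 1.06% of all genes tested. Supplemented wild type had 383 to 898 CPM of *pud-3*, at 6.82 against untreated wild type. There *pud-4* was at 6.61, *pud-1.1* at 3.85 and *pud-2.2* at 3.71, and none of the 4 was called between the supplemented strains. *asm-3*, an acid sphingomyelinase gene, had 3.25, 0.737, 3.44, 6.81 and 3.66 CPM in supplemented mutants and no count in any wild-type library, at least 7.46-fold higher when each wild-type library is set to a floor of 3 counts. The cytochrome P450 gene *cyp-37B1* had 19.9, 3.93, 3.52, 1.06 and 1.94 CPM in supplemented mutants and 0.163, 0, 0, 0 and 0.155 CPM in wild type, a log2 fold change of 5.60 with an interval of 4.08 to 7.12. *Y68A4A.13* had 3.19 to 12.03 CPM in supplemented mutants, 0.463 to 2.21 CPM in unsupplemented mutants, 0 to 0.642 CPM in supplemented wild type and 0 to 0.652 CPM in untreated wild type. *Y49G5A.1*, left changed, was at 4.25 (SE 0.51, adjusted p = 7.56e-06 in edgeR), with 2.29 to 29.7 CPM in supplemented mutants and 0.489 to 1.11 CPM in wild type. With the replicate number as a block, *asm-3*, *cyp-37B1*, *Y68A4A.13* and *F54D8.10* were among the genes left changed.

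Further genes, several of them of lysosomal lipid or protein breakdown, were picked after their values were seen and were called in either direction. *asah-1*, an acid ceramidase gene, had 121, 60.9, 32.9, 36.2 and 37.2 CPM in supplemented mutants and 12.4, 13.6, 13.6, 5.71 and 10.96 CPM in wild type, without overlap, at 2.18 (SE 0.28, adjusted p = 2.1e-05 in edgeR). The lysosomal lipase genes *lipl-1* and *lipl-2* had 0.737 to 6.14 and 1.23 to 5.197 CPM in supplemented mutants, against 0 to 0.278 and 0 to 0.311 CPM in wild type. Their log2 fold changes were 4.89 (edgeR adjusted p = 0.00425) and 4.92 (edgeR adjusted p = 0.000107). With each wild-type library set to a floor of 3 counts, *lipl-1* was at least 5.97-fold higher. *mxl-3*, encoding a transcription factor known to repress lysosomal lipase genes, was lower, with 19.9, 61.1, 38.6, 38.2 and 35.8 CPM in supplemented mutants and 63.1, 80.3, 91.4, 93.6 and 70.2 CPM in wild type. Its log2 fold change was -1.06 (SE 0.25, adjusted p = 0.0197 in edgeR), and the call was lost without replicate 1 (adjusted p = 0.0521) or 7 (0.0522) of supplemented mutants and replicate 5 (0.0637) or 6 (0.0671) of wild type. The cathepsin B-like protease gene *cpr-5* had 74.3, 50.3, 45.2, 53.7 and 45.8 CPM in supplemented mutants and 125, 187, 146, 226 and 221 CPM in wild type, at -1.78 (SE 0.23, adjusted p = 2.03e-05 in edgeR). *pmp-5*, an ABC transporter gene, had 8.30, 17.7, 16.01, 20.4 and 18.5 CPM in supplemented mutants and 82.9, 112, 107, 108 and 129.7 CPM in wild type, at -2.73 (SE 0.24, adjusted p = 3.73e-08 in edgeR), and the ranges were far apart. Against untreated wild type, supplemented wild type was at 1.72 for *asah-1*, 5.10 for *lipl-1* and 3.85 for *lipl-2*. It was at -1.81 for *cpr-5*, -2.23 for *pmp-5* and, not called, -0.84 for *mxl-3*. None of these genes was called between the supplemented strains.

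Of 11 tested genes of the methionine and S-adenosylmethionine cycle with folate, 2 were called, both lower in supplemented mutants, with a median of -0.72 over the 11. Among all genes tested, 0.772% were lower. The S-adenosylmethionine synthetase gene *sams-1* had 266, 224, 123, 66.7 and 67.5 CPM in supplemented mutants and 1289.7, 627, 472, 133 and 131 CPM in wild type, and it was higher in the olga than in the s series in both groups. The log2 fold change was -1.69 (SE 0.40, adjusted p = 0.021 in edgeR), and the call was lost without replicate 1 (adjusted p = 0.0684) or 2 (0.063) of supplemented mutants and replicate 1 (0.06) or 5 (0.0979) of wild type. *ahcy-1*, which encodes S-adenosylhomocysteine hydrolase, had 1363, 1687, 1137, 1503 and 1084 CPM in supplemented mutants and 3594, 2702, 2669.9, 2658 and 1760.4 CPM in wild type, without overlap, at -0.97 (SE 0.22, adjusted p = 0.0159 in edgeR). It lost its call without replicate 1 (adjusted p = 0.0695) or 5 (0.053) of supplemented mutants. The methionine synthase gene *metr-1* was not called, at -0.72 (edgeR adjusted p = 0.519). *nhr-114*, a nuclear receptor gene of the response to low S-adenosylmethionine cycle flux, had 1.56, 5.16, 1.59, 1.99 and 2.24 CPM in supplemented mutants and 15.01, 11.95, 12.4, 5.17 and 6.06 CPM in wild type, at -2.05 (SE 0.34, adjusted p = 0.000726 in edgeR). Its groups did not overlap, though replicate 2 of supplemented mutants nearly reached the lowest wild-type library. Against untreated wild type, supplemented wild type was at -1.05 for *ahcy-1*, -1.62 for *nhr-114* and, not called, -1.27 for *sams-1*. None of these genes was called between the supplemented strains.

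Downstream of the cycle, *pmt-2*, a phosphoethanolamine methyltransferase gene of phosphatidylcholine synthesis, had 165, 196, 192, 299 and 184 CPM in supplemented mutants and 543, 297, 417, 452 and 319 CPM in wild type. Its log2 fold change was -0.96 (SE 0.22, adjusted p = 0.0183 in edgeR), the sole call among 10 tested genes of that list, and it was lost without replicate 1 (adjusted p = 0.0901), 2 (0.0582) or 5 (0.0538) of supplemented mutants or replicate 1 of wild type (0.0516). In transsulfuration the cystathionine beta-synthase gene *cbs-1* was higher, with 40.8, 33.1, 17.9, 27.5 and 26.1 CPM in supplemented mutants and 23.3, 16.7, 7.69, 10.7 and 8.86 CPM in wild type, at 1.19 (SE 0.27, adjusted p = 0.0164 in edgeR), the sole call of 8. Of the canonical propionate pathway, 1 of 7 genes was called: *mmaa-1*, whose product serves the vitamin B12-dependent mutase, had 70.4, 71.0, 80.4, 62.0 and 88.3 CPM in supplemented mutants and 156, 122, 112, 109 and 172 CPM in wild type. Its groups did not overlap, at -0.86 (SE 0.19, adjusted p = 0.0145 in edgeR), and the call was lost without replicate 6 of supplemented mutants (adjusted p = 0.0862) and replicate 1 (0.103) or 7 (0.0598) of wild type. The mutase gene *mmcm-1* itself was at 0.03 (edgeR adjusted p = 0.997). Against untreated wild type, supplemented wild type was called for *cbs-1*, at 1.45. It was not called for *pmt-2*, at -0.79, or *mmaa-1*, at -0.67. Shares called over all genes tested were 1.06% higher and 0.772% lower.

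The desaturase list held 2 called genes of 7, both lower: *fat-7* and *fat-5*, a palmitoyl-CoA desaturase gene. *fat-5* had 4.33, 5.65, 1.26, 1.21 and 2.54 CPM in supplemented mutants, 17.6, 17.1, 45.0, 35.0 and 26.7 CPM in unsupplemented mutants and 38.5, 14.2, 52.0, 16.9 and 17.02 CPM in wild type, where supplemented mutants lay below all other libraries of the 3 groups. Its log2 fold change was -3.40 (SE 0.49, adjusted p = 0.000118 in edgeR), beside -1.51 (edgeR adjusted p = 0.125) in supplemented wild type. *fat-6*, which encodes the other stearoyl-CoA desaturase, was not called, at -0.48 (edgeR adjusted p = 0.445). The lysozyme gene *lys-4* had 40.6, 17.2, 5.197, 7.74 and 8.15 CPM in supplemented mutants and 132, 106, 39.7, 45.7 and 49.4 CPM in wild type, at -2.39 (SE 0.28, adjusted p = 4.02e-06 in edgeR), so that the 2 called lysozyme genes of 9 tested, *lys-2* and *lys-4*, lay on opposite sides of wild type. Infection response genes *irg-4* and *irg-5*, picked after their values were seen, were at 2.18 (edgeR adjusted p = 3.89e-06) and 2.23 (edgeR adjusted p = 0.00283). Of 25 glutathione S-transferase genes 2 were higher, *gst-20* with 9.56 to 35.4 CPM in supplemented mutants and 2.099 to 5.74 CPM in wild type and *gst-38* with 3.49 to 8.15 and 0 to 1.64 CPM, and 3 of 34 cytochrome P450 genes were higher and 0 lower. Single calls came from 4 tested heat shock genes (*hsp-12.3*), 9 oxidative stress genes (*sod-3*) and 9 regulators of the vitamin B12 response and lipid genes (*nhr-114*). Beside all these lists, 1.06% of all genes tested were higher and 0.772% lower. The small heat shock gene *hsp-12.3* was at -1.78 (edgeR adjusted p = 0.034), but at -1.18 without replicate 1 of wild type, and its call was lost in 5 fits without 1 library (adjusted p up to 0.296). The superoxide dismutase gene *sod-3* was at -3.46 (edgeR adjusted p = 0.0207), but at -6.19 without replicate 6 of supplemented mutants, and its call was lost in 6 such fits (adjusted p up to 0.125).

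Several lists had no called gene between supplemented mutants and untreated wild type in edgeR. These were branched-chain amino acid breakdown (10 genes tested, 1 at an unadjusted p under 0.05, median -0.01), lysine breakdown (4 tested, 1, -0.17), fatty acid elongases (5 tested, 1, -0.15), the glyoxylate cycle and gluconeogenesis (5 tested, 1, -0.11) and mitochondrial chaperones and stress genes (8 tested, 1, -0.02). Vitellogenins (6 tested) had a median of 0.27 and none at an unadjusted p under 0.05. Over all genes 917 of 11270 had an unadjusted p under 0.05.

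The 207 genes that were not placed had medians between the unsupplemented mutant and the wild-type level. Their median log2 fold change was 0.72 in supplemented and 1.61 in unsupplemented mutants for the 136 that had been higher, and -0.58 and -1.49 for the 71 that had been lower. For 99 the interval of the remaining difference lay wholly on the original side of 0, and 121 had under 0.5 of the original difference. Only 39 had an interval within 1 log2 unit either way, and 33 had a call toward wild type with the supplement. Calling the genes on their difference without supplement by itself favours a smaller second value, since the first was selected for its size. The same holds for the genes brought back.

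By position, 40 of the 79 genes left changed (50.6%) were on chromosome V, which holds 18.6% of the genes tested, and 13 were on chromosome II, where *dhgd-1* lies and which holds 16.6%. Chromosome V also held 41.7% of all 206 genes called, 35.2% of the 125 changed with the supplement only and 31.9% of the 207 not placed. Of the 29 genes brought back, 8 (27.6%) were on chromosome V and 9 (31%) on chromosome X, which holds 14.9% of the genes tested. These shares are a description, with the neighbouring and related genes of chromosome V, such as the UDP-glucuronosyltransferases, counted singly.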

How the data were processed

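The authors deposited whole-number read counts per gene for 20 Cel-seq2 libraries, without normalization. According to the methods and the submitters' processing notes they demultiplexed with a python script, trimmed with Trimmomatic 0.32, aligned with STAR and counted with ESAT, discarding pseudogenes. STAR and ESAT versions, genome build, use of strand and handling of molecular identifiers are not given in the sources used here, so overlapping genes may share reads. Of 22736 identifiers, 22497 were matched to a WBcel235 symbol and 239 kept their identifier.

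Groups came from the sample labels. Library series, olga or s, was taken from the library names and stands for the 2 sequencing runs of the methods only by its split of the replicates. Replicates were described as biological. After TMM normalization 11270 genes passed filterByExpr with the groups given. edgeR 4.0.16 (glmQLFit, glmQLFTest; limma 3.58.1, R 4.3.3) was fitted to all 20 libraries with group and library series, with Benjamini-Hochberg adjustment over all genes tested. Calls needed over 1.5-fold and an adjusted p below 0.05. The standard error is the log2 fold change over the root of F. A floor of 3 counts per library and all bounds cover counting error only. DESeq2 1.42.0, the tool of the study, was an alternative, and Python 3.11.15 with matplotlib 3.10.9 drew the figures. The procedure was tested on simulated data.

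Same-numbered libraries of the 2 groups deviated together from their group means (r = 0.32 to 0.60 in 5 pairs, and 0.03 to 0.44 once library series was removed). Libraries of different groups with unequal numbers gave r = -0.65 to 0.55, and -0.51 to 0.46 once series was removed. These ranges overlap, so pairing by number was not settled. A model with replicate number in place of series was also fitted as a block. Other alternatives were RLE size factors, library totals, no or a stricter filter (20 counts in 5 libraries), no fold minimum, no series term, the needed libraries alone, each series alone, each library left out, and a 1.5-fold or no interval for genes brought back.

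Named genes were the 8 largest changes per direction with a mean count of at least 20 and the same sign in 5 of 5 pairs, the 4 largest per direction of each class, the shunt and ketone body genes, *dhgd-1* and *acdh-2*, and list members that were called or classed, the 2 largest per direction in families over 20. Others are marked in the text as picked afterwards. The comparison and lists were chosen with earlier results of these data known. The list members *sqrd-2*, *dhtk-1*, *hsp-16.48*, *hsp-16.49*, *ctl-1*, *ctl-3*, *pud-2.1*, *hlh-27* and *opt-2* were not analysed here.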

Additional observations from a re-analysis of the deposited data

Results flagged for a closer look

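In groups of 5 libraries, Dixon's test was applied to 214 groups and picked out 14, where chance picks out about 1 in 20. Among the 10 libraries compared, *cpr-1* stood at 1035 CPM in replicate 1 of supplemented mutants against 128 to 191 CPM in the other 4, and *pmp-5* at 8.30 CPM there against 16.01 to 20.4. *Y38H6C.21* had 0.120 CPM in that library and 0 in the others. *K09C6.9* was at 0 CPM in replicate 2 of supplemented mutants against 0.994 to 1.56, and at 1.95 CPM in replicate 2 of wild type against 6.36 to 9.72. *nhr-114* had 5.16 CPM in replicate 2 of supplemented mutants against 1.56 to 2.24. In replicate 6 of supplemented mutants, *pmt-2* had 299 CPM against 165 to 196, *sod-3* had 0.284 CPM against 0, and body wall muscle markers summed to 8507 CPM against 5924 to 6302. *ugt-32* had 46.6 CPM in replicate 7 of supplemented mutants against 20.0 to 25.1. In wild type, *hsp-12.3* had 11.9 CPM in replicate 1 against 1.74 to 3.06, *Y68A4A.13* had 0.652 CPM in replicate 1 against 0 to 0.0777, and *asah-1* had 5.71 CPM in replicate 6 against 10.96 to 13.6. Replicate 7 of supplemented wild type had a vitellogenin sum of 1426 CPM against 8001 to 13420.

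The effect of vitamin B12 differed between the strains, by edgeR's interaction test, for 2 genes named in the report. For *lys-2* the difference was -1.38 on the log2 scale, with effects of 0.28 in mutants and 1.66 in wild type. For *pud-3* it was -3.27, with effects of 3.55 and 6.82 in the same order. The interaction was called for 5 genes of 11270.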

How the results depend on the processing

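The counts are given as higher, lower, left changed, brought back, overshot and changed with the supplement only. In the report 206 genes were called, 87 of them lower, with 79, 29, 2 and 125 in the last 4. With the replicate number as a block they were 206, 129, 141, 79, 6 and 188, in DESeq2 175, 118, 123, 54, 5 and 165, and with no filter on low counts 268, 160, 204, 78, 9 and 215. Without the library series term they were 61, 44, 40, 6, 0 and 65, within the olga series alone 10, 7, 7, 0, 0 and 10, and within the s series alone 49, 39, 28, 11, 0 and 60. Library totals gave 5 overshot genes and the needed libraries alone 4. A 1.5-fold interval left 8 genes brought back and no interval 62. Leaving out 1 library at a time, the ranges were 88 to 144, 60 to 106, 55 to 103, 12 to 42, 0 to 4 and 85 to 145. Leaving out libraries of the other 2 groups was added after seeing the data. RLE size factors, the stricter filter and no fold minimum kept every count within 1.5 times. All 206 genes called, the 79 left changed, the 29 brought back and the 2 overshot were also so placed in the fits with the block and in DESeq2. With RLE size factors 76 of the 79 left changed were, and with library totals 184 of the 206 called, 70 of the 79 left changed and 18 of the 29 brought back. Higher genes made up 57.8% of those called, and 67.5% with library totals.

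No named gene changed direction past the threshold under any alternative. Of 65 named genes called, 18 lost the call in at least 1 fit without 1 library, among them *clec-190*, *cyp-35B1*, *fipr-1*, *sod-3* and *hsp-12.3*. The causes of these changes were not tested. Depth limits low genes: a count of 0 allows 3 counts in a library.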

Other observations

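Some genes outside the lists, picked after their values were seen, also differed between supplemented mutants and untreated wild type. *acs-2*, an acyl-CoA synthetase gene of fatty acid oxidation, had 41.6, 87.9, 117, 20.7 and 15.3 CPM in supplemented mutants, 519, 287, 329, 362 and 384 CPM in unsupplemented mutants and 115, 195, 109, 281 and 155 CPM in wild type, a log2 fold change of -1.61 (SE 0.40, adjusted p = 0.034 in edgeR) that was lost without replicates 1, 6 or 7 of supplemented mutants or 2 or 6 of wild type, with adjusted p up to 0.115. The folate transporter family gene *folt-2* had 46.1 to 212 CPM in supplemented mutants and 131 to 411 CPM in wild type, at -1.09 (edgeR adjusted p = 0.0413), with a call lost in 10 fits without 1 library. *lbp-7*, a fatty acid binding protein gene, was left changed at 1.66 (SE 0.34, adjusted p = 0.00674 in edgeR), with 32.9, 18.2, 16.3, 8.73 and 19.6 CPM in supplemented mutants and 5.38, 3.06, 9.02, 3.39 and 7.31 CPM in wild type. The lysosomal lipase gene *lipl-5* had 141, 133, 233, 116 and 147 CPM in supplemented mutants and 66.4, 62.8, 103, 20.9 and 59.6 CPM in wild type, at 1.30 (SE 0.33, adjusted p = 0.0389 in edgeR), lost in 6 such fits.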
